A study of Homo sapiens with 16 samples.

Results

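The genes described here are 10 genes of the NF-kappa-B system: the subunit genes NFKB1, NFKB2, RELA and RELB, the inhibitor genes NFKBIA, NFKBIE and TNFAIP3, and the target genes BIRC3, ICAM1 and CXCL8. They were chosen by name, with earlier results of these data known, and taken by Ensembl identifier from the 60605 identifiers that carry counts. All 10 were found. The assay was PRO-seq, in which polymerases already engaged on the genome extend their RNA in isolated nuclei with labelled nucleotides and the labelled RNA is sequenced. The cells were LNCaP, an established androgen-responsive human prostate cancer line derived from a lymph node metastasis. There are 16 libraries in 2 batches. In batch 1, cells labelled mock were compared with cells given 6 Gy of ionizing radiation (IR), with 2 replicates per group and with libraries named t1 and t2 for each replicate. In batch 2, 4 groups of 2 replicates were compared. They were DMSO vehicle for 90 min, vehicle with 6 Gy given 30 min into the treatment and 60 min before collection, 10 µM enzalutamide (an androgen receptor antagonist) for 90 min, and enzalutamide with the same IR. The labels give no separate times for batch 1 and name no genetic change in any group, so the comparisons are of treatments within 1 line. They also do not say whether replicates were separate cultures. P-values then measure the spread between these samples, which may be technical.

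NF-kappa-B is a family of dimeric transcription factors built from Rel proteins: RELA, RELB and REL, which carry activation domains, and the processed products of NFKB1 (p105 to p50) and NFKB2 (p100 to p52). In resting cells the dimers are held in the cytoplasm by inhibitors such as IκBα (NFKBIA) and IκBε (NFKBIE). Phosphorylation by the IκB kinase complex marks these inhibitors for degradation, and the freed dimers bind kappa-B sites. Several genes of the system are themselves targets, among them NFKBIA and the ubiquitin-editing enzyme A20 (TNFAIP3), which both act as negative feedback. DNA double-strand breaks can reach the same kinase through ATM, NEMO (IKBKG) and PIDD1.

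Promoter sequences are shown because 5 of the 10 genes hold matches to the kappa-B consensus, a motif of 10 bases, close to a start site, and because both NFKB2, which rose after IR in batch 2, and genes that did not pass the test are among them. RefSeq windows on GRCh38.p14 reach from 250 bases before to 50 bases after a start and were matched by symbol. They covered 8 of the 10 genes with 12 windows. NFKB1, NFKB2, NFKBIA, TNFAIP3 and BIRC3 held a match on either strand in at least 1 window, against 13.3% of 27305 genes. By window, 6 of the 12 held a match, against 11.3% of 35116 windows. RELB and NFKBIE are named only. The 250 bases before the start are printed 5′ to 3′ on the strand of the gene, and capitals mark the bases of kappa-B matches. They are the second NFKB2 window at chr10:102394328-102394577 (plus strand), NFKBIA at chr14:35404750-35404999 (minus strand), TNFAIP3 at chr6:137867009-137867258 (plus strand) and BIRC3 at chr11:102317234-102317483 (plus strand).
NFKB2: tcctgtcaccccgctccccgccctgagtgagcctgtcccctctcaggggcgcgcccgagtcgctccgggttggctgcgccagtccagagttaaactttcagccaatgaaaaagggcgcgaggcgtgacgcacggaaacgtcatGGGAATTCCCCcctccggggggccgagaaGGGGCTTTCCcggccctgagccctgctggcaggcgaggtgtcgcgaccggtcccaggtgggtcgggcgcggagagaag
NFKBIA: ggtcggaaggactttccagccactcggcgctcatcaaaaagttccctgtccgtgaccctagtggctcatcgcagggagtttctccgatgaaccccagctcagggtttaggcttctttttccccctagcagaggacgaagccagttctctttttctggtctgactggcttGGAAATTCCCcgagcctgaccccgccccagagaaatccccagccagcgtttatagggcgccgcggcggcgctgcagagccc
TNFAIP3: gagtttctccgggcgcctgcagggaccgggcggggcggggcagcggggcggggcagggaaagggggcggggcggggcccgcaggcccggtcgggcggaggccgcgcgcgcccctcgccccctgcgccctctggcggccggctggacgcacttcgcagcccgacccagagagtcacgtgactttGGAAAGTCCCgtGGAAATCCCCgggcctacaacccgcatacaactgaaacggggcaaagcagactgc
BIRC3: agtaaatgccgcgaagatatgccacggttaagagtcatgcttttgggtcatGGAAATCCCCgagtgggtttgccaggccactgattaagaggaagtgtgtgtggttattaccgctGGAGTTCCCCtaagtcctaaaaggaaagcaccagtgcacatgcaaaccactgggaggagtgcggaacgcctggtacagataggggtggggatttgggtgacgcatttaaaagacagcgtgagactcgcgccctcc
In the NFKB2 window the capitals form 2 stretches, which begin at positions -107 and -78 counted back from the start. The NFKBIA window has 1 stretch, from -81. The TNFAIP3 window has 2 stretches close together, from -67 and -55, and the BIRC3 window has 2, from -199 and -135. The windows of ICAM1 and CXCL8 held no match to the full consensus. The ICAM1 window held tggaaattcc and the CXCL8 window tggaatttcc, which miss it only at the first base. The share of all windows with such a near match is not given. Each of the 2 windows held the letters TATAAA on the strand of the gene, against 7.33% of all windows. A match describes the letters of the window and not binding.

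Batch 2 libraries held 10494563 to 19905824 counts and batch 1 libraries 3438642 to 9363458. The t1 and t2 counts of each batch 1 replicate were summed, which left 12 samples with at least 8022989 counts. The t1 and t2 totals were 3438642 and 4584347 in mock replicate 1 and 5633290 and 3583636 in mock replicate 2. After IR they were 7625459 and 4993789 in replicate 1 and 7488015 and 9363458 in replicate 2. The summed samples of batch 1 thus hold t1 and t2 in unequal shares, which can add to the spread between them. CDKN1A, a p53 target used as a check of the IR labels, was at 45.1 ± 2.73 CPM in mock and 565 ± 23.3 CPM in irradiated batch 1 cells (SD, n = 2 each), and it was called in every IR comparison below. Summed over 7 markers of LNCaP cells, levels were 2380 to 3390 CPM in the 12 samples. Of immune markers, CD68 was at 44.5 to 64.7 CPM, CSF1R at 1.32 to 2.29 CPM, and PTPRC and CD3E were each under 1 CPM in every sample. Summed stromal and endothelial markers (5 genes) were at 11.0 to 18.5 CPM and basal markers (3 genes) at 4.37 to 9 CPM. CPM are counts relative to the library total, scaled by TMM factors. In bulk libraries such as these, fewer transcribing cells and less transcription per cell cannot be told apart.

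After IR, RELB rose in batch 2 and over both batches, with log2 fold changes between 0.60 and 0.77 in 5 comparisons. NFKB2 rose in batch 2, and NFKBIE rose in batch 1 and over both batches, with opposite directions in the t1 and t2 libraries. In edgeR's quasi-likelihood test with an adjusted p under 0.05, 1 of the 8 genes with enough counts was called in batch 1, where 2.82% of all genes tested were called, and DESeq2 called 0. In vehicle-treated cells of batch 2 the count was 0 of 9, against 1.10% of all genes by edgeR, and DESeq2 called 0. At an unadjusted edgeR p under 0.05 were 3 of the 9, against 3161 of all 28651 genes tested. Under enzalutamide the count was again 0 of 9, against 0.918% by edgeR, and DESeq2 called 0. Here too 3 of the 9 had an unadjusted edgeR p under 0.05, against 2720 of all 28651 genes. Averaged over enzalutamide, with 4 irradiated against 4 unirradiated samples, 2 of 9 were called (4.71% of all genes). In that fit 5 of the 9 had an unadjusted edgeR p under 0.05, against 6246 of all 28651 genes. DESeq2 called 4 there (8.53% of all genes). Over both batches without enzalutamide, again 2 of 9 were called (4.05% of all genes), and DESeq2 called 3 (4.83%). None of these calls was of a lower level. These comparisons share samples: the average over enzalutamide holds both comparisons of batch 2, and the fit over both batches holds the vehicle and mock comparisons.

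**Figure D1:**
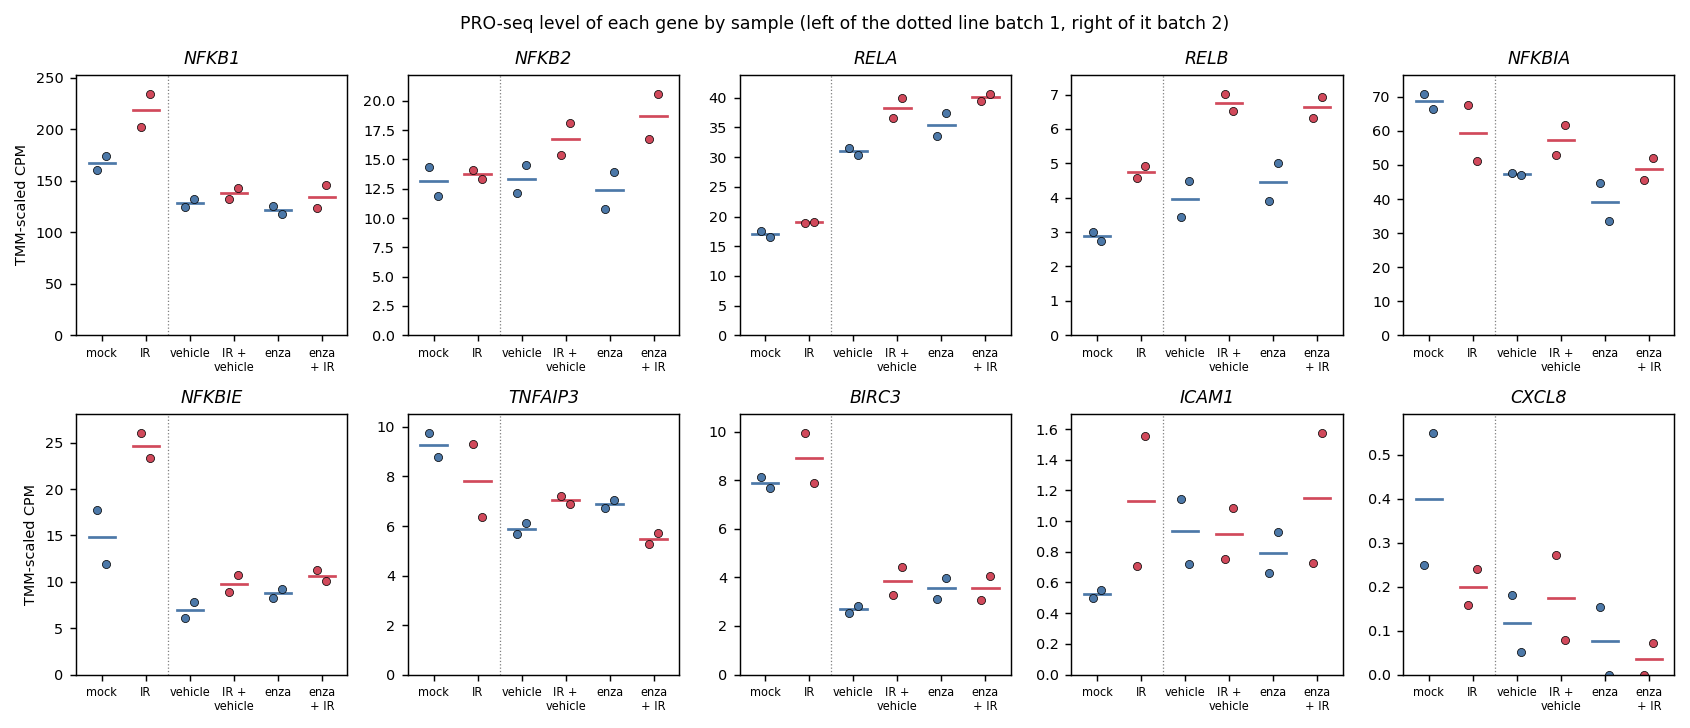
Levels of the 10 genes in TMM-scaled CPM (vertical axes, each from 0) in the 12 samples. Points are samples, bars are means of 2 replicates, red marks IR, and a dotted line parts batch 1 from batch 2; RELB and NFKB2 in batch 2 are the panels where the 4 irradiated samples lie above the 4 others.

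Among the subunit genes, RELB encodes the Rel partner of p52 in the non-canonical pathway. Its level was 3.00 and 2.75 CPM in the mock replicates of batch 1 and 4.58 and 4.91 CPM after IR. Vehicle-treated cells of batch 2 had 3.43 and 4.48 CPM, and irradiated ones 7.02 and 6.52 CPM. With enzalutamide it was 3.92 and 5.01 CPM, and with enzalutamide and IR 6.32 and 6.93 CPM. With t1 and t2 summed in batch 1, every irradiated sample was thus above every unirradiated sample of its own batch. The t2 libraries of batch 1 alone overlapped. Without overlap between 4 irradiated and 4 unirradiated samples, RELB and NFKB2 were the 2 genes of 9 that were higher, and 0 were lower. Of all genes, 6.84% were higher in this way. Where 2 samples are set against 2, here and for the genes below, the share of all genes that part is not reported here. Such separations are descriptive only. The counts behind RELB are small, between 24 and 103 per sample.

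The log2 fold change of RELB after IR averaged over enzalutamide was 0.69 (SE 0.142, edgeR adjusted p = 0.0132), a 1.61-fold rise with a 95% interval from 1.30 to 1.99. Over both batches without enzalutamide it was 0.74 (SE 0.160, edgeR adjusted p = 0.00736). The single comparisons gave 0.73 in batch 1 (SE 0.248, edgeR adjusted p = 0.211), 0.77 with vehicle (SE 0.211, edgeR adjusted p = 0.147) and 0.60 with enzalutamide (SE 0.216, edgeR adjusted p = 0.387). None of these 3 passed alone. In the fit with the replicate number as a block, the vehicle comparison of RELB passed (edgeR adjusted p = 0.0168), the 1 gene of 9 called there, against 4.59% of all genes. Leaving out vehicle replicate 3 or vehicle and IR replicate 3 took the averaged call away (edgeR adjusted p = 0.0610 and 0.0506).

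NFKB2 encodes p100, which is both an inhibitor and the precursor of p52. In batch 2 it was at 12.1 and 14.5 CPM with vehicle and at 15.3 and 18.1 CPM with vehicle and IR. With enzalutamide it was at 10.8 and 13.9 CPM and with enzalutamide and IR at 16.8 and 20.6 CPM. The 4 irradiated samples of batch 2 were above the 4 others. In batch 1 the mock replicates were at 14.4 and 11.9 CPM and the irradiated ones at 14.1 and 13.3 CPM, so the groups overlapped there. The averaged log2 fold change in batch 2 was 0.47 (SE 0.120, edgeR adjusted p = 0.0409), or 1.38-fold with an interval from 1.16 to 1.65. In batch 1 it was 0.07 (SE 0.160, edgeR adjusted p = 0.940). The difference of the IR effect between batches was -0.28 (SE 0.223, edgeR adjusted p = 0.932), with an interval from -0.75 to 0.19. With the replicate block NFKB2 also passed under enzalutamide alone (log2 fold change 0.60, edgeR adjusted p = 0.00344), the 1 gene of 9 called in that fit, against 3.32% of all genes. The averaged call was lost without vehicle replicate 3 (edgeR adjusted p = 0.130), vehicle and IR replicate 4 (0.0928), enzalutamide replicate 3 (0.0770), or enzalutamide and IR replicate 3 (0.0698) or 4 (0.132). It was also lost when libraries were scaled by total counts (0.44, edgeR adjusted p = 0.0740).

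NFKB1 encodes p105, the precursor of p50. It was at 160 and 174 CPM in the mock replicates and at 202 and 235 CPM after IR in batch 1. In batch 2 its range was narrow, from 118 to 146 CPM over all 8 samples, and irradiated and unirradiated samples overlapped. The log2 fold change in batch 1 was 0.39 (SE 0.131, edgeR adjusted p = 0.209) and passed with the replicate block (edgeR adjusted p = 0.000775). With the block, 2 of 8 genes were called in batch 1, NFKB1 and NFKBIE, against 9.01% of all genes. In batch 2 the averaged value was 0.12 (SE 0.064, edgeR adjusted p = 0.285). Over both batches it was 0.23 (SE 0.080, edgeR adjusted p = 0.136), and with the replicate block NFKB1 passed (edgeR adjusted p = 0.0241) beside RELB and NFKBIE, 3 of 9 genes against 6.69% of all genes. DESeq2 called the same 3, with an adjusted p of 0.0278 for NFKB1.

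RELA encodes p65, the subunit of the canonical p50-p65 dimer. It was at 17.6 and 16.6 CPM in mock and at 18.9 and 19.1 CPM in irradiated batch 1 cells. Levels in batch 2 were 31.6 and 30.4 CPM with vehicle, 36.5 and 40.0 CPM with vehicle and IR, 33.6 and 37.4 CPM with enzalutamide, and 39.4 and 40.7 CPM with enzalutamide and IR. Irradiated samples were above the unirradiated samples of their own treatment in these 3 comparisons of 2 samples against 2. The enzalutamide and the vehicle and IR groups overlapped. The averaged log2 fold change was 0.24 (SE 0.068, edgeR adjusted p = 0.0599) and passed with the replicate block (edgeR adjusted p = 0.00841). With that block, 5 of 9 genes were called in the average over enzalutamide, NFKB2, RELA, RELB, NFKBIA and NFKBIE, against 15.0% of all genes. RELA overlaps the divergent transcript RELA-DT in RefSeq, and the use of strand in counting is not given in the sources used here, so its counts are uncertain.

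**Figure D2:**
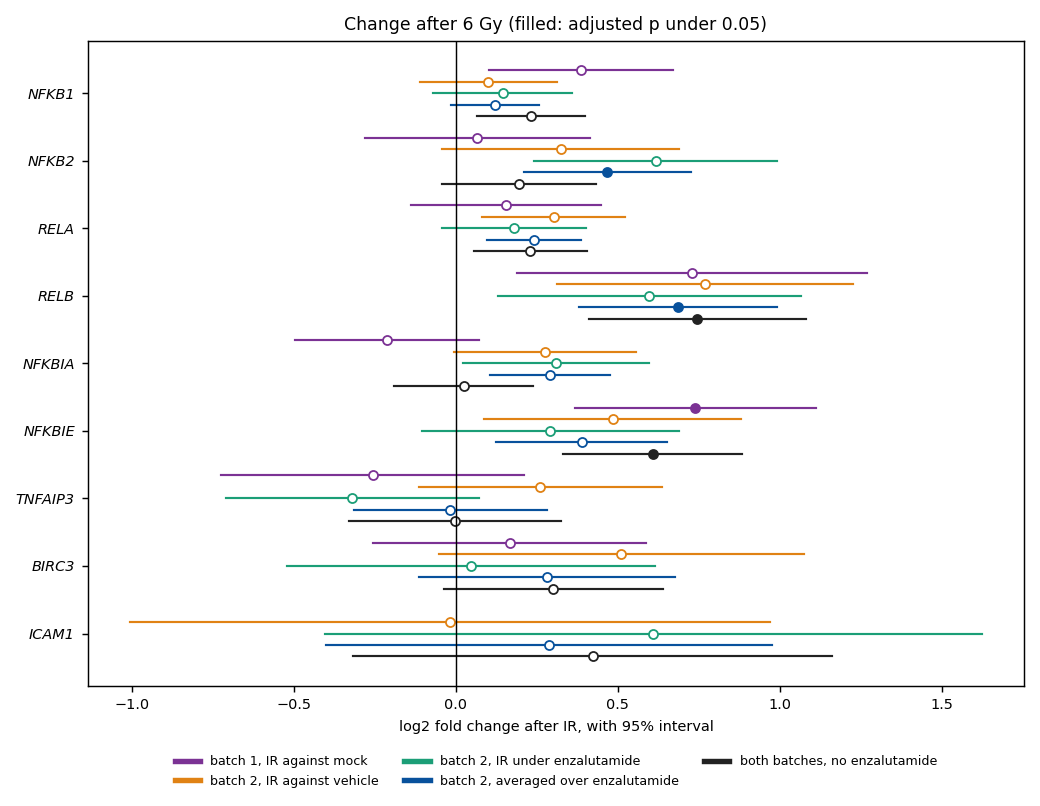
Log2 fold change after 6 Gy (horizontal axis) with its 95% interval for the 9 genes tested, in batch 1, in batch 2 with vehicle, with enzalutamide and averaged over it, and over both batches without enzalutamide. Filled points passed an adjusted p of 0.05; RELB lies between 0.60 and 0.77 in all 5 comparisons, while NFKBIA and TNFAIP3 lie on both sides of 0.

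Of the inhibitor genes, NFKBIE encodes IκBε, an inhibitor of the canonical dimers. In batch 1 it was at 17.8 and 11.97 CPM in mock and at 26.0 and 23.4 CPM after IR, without overlap. Levels in batch 2 were 6.08 and 7.87 CPM with vehicle, 8.86 and 10.8 CPM with vehicle and IR, 8.24 and 9.27 CPM with enzalutamide, and 11.3 and 10.1 CPM with enzalutamide and IR. Within each treatment the irradiated samples were the higher ones, and across treatments 1 sample with enzalutamide alone exceeded 1 irradiated vehicle sample. The log2 fold change was 0.74 in batch 1 (SE 0.171, edgeR adjusted p = 0.0371), or 1.67-fold with an interval from 1.29 to 2.16. Over both batches it was 0.61 (SE 0.132, edgeR adjusted p = 0.00791). In batch 2 it was 0.39 averaged over enzalutamide (SE 0.123, edgeR adjusted p = 0.0892), which passed with the replicate block (edgeR adjusted p = 0.0191). Without mock replicate 2 the batch 1 value fell to 0.47. The batch 1 call was lost with scaling by total counts (edgeR adjusted p = 0.0564) and with DESeq2 (adjusted p = 0.0775). It was also lost in a fit of the 8 libraries with a replicate block and a t term (0.575, SE 0.433). The summed batch 1 value joins t1 and t2 libraries that went in opposite directions, as given below.

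NFKBIA encodes IκBα. It was at 70.9 and 66.5 CPM in mock and at 67.7 and 51.3 CPM after IR in batch 1. The vehicle samples of batch 2 were at 47.8 and 46.9 CPM and at 52.8 and 61.8 CPM after IR. With enzalutamide it was at 44.7 and 33.6 CPM, and with enzalutamide and IR at 45.6 and 52.1 CPM. Irradiated samples were the higher ones within both treatments of batch 2, and the groups overlapped in batch 1. The log2 fold change was 0.29 averaged over enzalutamide (SE 0.087, edgeR adjusted p = 0.0723; 0.0102 with the replicate block) and -0.21 in batch 1 (SE 0.131, edgeR adjusted p = 0.623). The difference between the batches was -0.51 (SE 0.173, unadjusted p = 0.00861, edgeR adjusted p = 0.712), and none of the 9 genes passed for this difference by edgeR or DESeq2, against 0.106% of all genes by edgeR. It was the 1 gene of the 9 with an unadjusted edgeR p under 0.05 there, against 1651 of all 29195 genes.

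TNFAIP3 encodes A20, which edits ubiquitin chains on the signalling complexes. It was at 9.75 and 8.78 CPM in mock and at 9.31 and 6.35 CPM after IR in batch 1, with overlap. In batch 2 it was at 5.66 and 6.12 CPM with vehicle and at 7.22 and 6.90 CPM with vehicle and IR. With enzalutamide it was at 6.72 and 7.04 CPM, and with enzalutamide and IR at 5.26 and 5.72 CPM. Irradiated samples were the higher ones with vehicle and the lower ones with enzalutamide. Its log2 fold changes after IR were 0.26 with vehicle (SE 0.174, edgeR adjusted p = 0.595) and -0.32 with enzalutamide (SE 0.180, edgeR adjusted p = 0.610). The interaction, which is the difference of these values, was -0.58 (SE 0.250, unadjusted p = 0.0378, edgeR adjusted p = 1.00). TNFAIP3 overlaps the long noncoding RNA gene WAKMAR2 in RefSeq, so its counts are uncertain as well.

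Of the target genes, BIRC3 encodes the apoptosis inhibitor cIAP2. It was at 8.13 and 7.68 CPM in mock and at 9.94 and 7.90 CPM after IR in batch 1. Levels in batch 2 were 2.53 and 2.83 CPM with vehicle, 3.27 and 4.42 CPM with vehicle and IR, 3.10 and 3.99 CPM with enzalutamide, and 3.08 and 4.07 CPM with enzalutamide and IR. Only with vehicle did irradiated and unirradiated samples part. The averaged log2 fold change was 0.28 (SE 0.184, edgeR adjusted p = 0.399), with an interval from -0.11 to 0.68.

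ICAM1, which encodes an adhesion molecule for leukocytes, had too few counts for a test in batch 1, with 4 and 5 counts in mock and 9 and 26 after IR. In batch 2 it had between 9 and 22 counts per sample. With vehicle it was at 1.14 and 0.720 CPM, with vehicle and IR at 0.750 and 1.09 CPM, with enzalutamide at 0.661 and 0.927 CPM, and with both at 0.729 and 1.57 CPM. All 4 ranges overlapped. The averaged log2 fold change was 0.29 (SE 0.321, edgeR adjusted p = 0.645), with an interval from -0.40 to 0.98. Changes in either direction within this interval were not excluded at this depth. Overlapping noncoding genes (LIMASI and ICAM4-AS1) make its few counts uncertain.

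CXCL8, which encodes the neutrophil attractant interleukin 8, was left out of every test for its low counts. Summed over the 2 replicates it had 7 counts in mock (exact 95% Poisson interval 2.81 to 14.4) and 6 after IR in batch 1 (2.20 to 13.1). In batch 2 the sums were 4 with vehicle (1.09 to 10.2), 5 with vehicle and IR (1.62 to 11.7), 3 with enzalutamide (0.619 to 8.77) and 1 with both (0.0253 to 5.57). The intervals overlap throughout and cover counting error only. Enzalutamide replicate 4 and enzalutamide and IR replicate 3 had 0 counts, which allows up to 0.278 and 0.243 CPM at a limit of 3 counts.

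The t1 and t2 libraries of batch 1 were then kept apart, since the labels do not say what they stand for. They differed more within a replicate (chi-square per degree of freedom 6.76 to 30.0) than libraries with the same t label did between replicates (2.98 to 6.27). NFKBIE was at 13.2 and 9.50 CPM in the mock t1 libraries and at 33.7 and 37.3 CPM in the irradiated t1 libraries. In the t2 libraries it was at 20.6 and 16.1 CPM in mock and at 13.4 and 12.04 CPM after IR. The 2 pairs of libraries thus went in opposite directions without overlap. In the t1 libraries alone the log2 fold change was 1.70 (SE 0.200, edgeR adjusted p = 1.48e-05), and in the t2 libraries alone it was -0.56 (SE 0.191, edgeR adjusted p = 0.0287). In a model of the 8 libraries, chosen after seeing the data, the IR effect in t2 minus that in t1 was -2.21 (SE 0.271, edgeR adjusted p = 4.26e-05).

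NFKB1 showed the opposite order. It was at 184 and 203 CPM in mock t1, 176 and 193 CPM in irradiated t1, 141 and 141 CPM in mock t2, and 244 and 272 CPM in irradiated t2 libraries. Its difference between t labels was 0.93 (SE 0.189, edgeR adjusted p = 0.00124), so its higher level after IR in batch 1 was that of the t2 libraries. NFKBIA was at 81.2 and 83.2 CPM in mock t2 and at 59.3 and 53.4 CPM in irradiated t2 libraries, while its t1 groups overlapped (54.5 and 57.2 CPM in mock, 72.8 and 49.4 CPM after IR). TNFAIP3 was at 10.5 and 13.9 CPM in mock t2 and at 7.10 and 5.96 CPM in irradiated t2 libraries, and its t1 groups overlapped too (8.43 and 5.51 CPM, then 10.6 and 6.90 CPM). For NFKBIA and TNFAIP3 the differences between t labels were -0.65 (SE 0.210, edgeR adjusted p = 0.0207) and -1.25 (SE 0.397, edgeR adjusted p = 0.0194).

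These 4 of 8 genes called for the difference stand beside 45.2% of all genes called in the same test, a share near their own. In the t1 libraries alone 1 of 8 was called (17.3% of all genes), and in the t2 libraries alone 4 of 8 (44.7%), of which 3 were lower. RELB did not pass for the difference (-0.40, SE 0.561, edgeR adjusted p = 0.589). Its log2 fold change was 0.90 in the t1 and 0.51 in the t2 libraries, neither called alone. RELB was at 3.61 and 2.28 CPM in mock t1 and at 5.58 and 4.78 CPM in irradiated t1 libraries. In the t2 libraries it was at 2.52 and 3.55 CPM in mock and at 2.92 and 5.08 CPM after IR, with overlap. These libraries held 12 to 46 RELB counts each. CDKN1A was far higher after IR under both labels, with log2 fold changes of 3.88 and 3.44. Mitochondrial genes, a share of counts that moved with the same split, took 4.25% and 5.06% in mock t1 and 2.87% and 2.86% in irradiated t1 libraries, against 3.24% and 3.94% in mock t2 and 5.38% and 4.47% in irradiated t2 libraries. Their part in the result was not tested. When the t2 libraries alone stood for batch 1 in the fit over both batches, neither RELB (0.67, edgeR adjusted p = 0.113) nor NFKBIE (0.00, edgeR adjusted p = 0.997) passed.

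**Figure D3:**
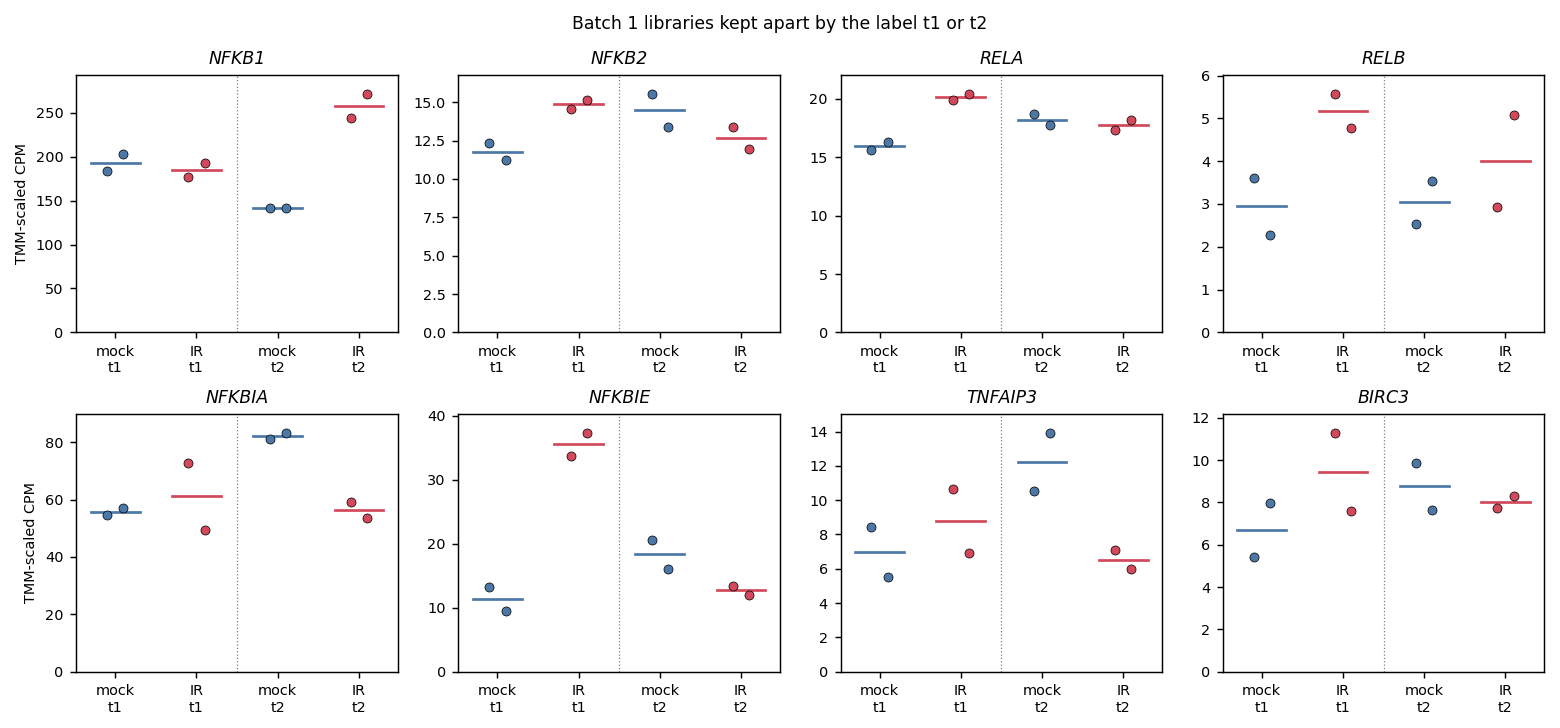
TMM-scaled CPM (vertical axes, each from 0) of 8 genes in the batch 1 libraries, with t1 left and t2 right of the dotted line. Points are libraries, bars their means and red marks IR; NFKBIE is higher after IR in t1 and lower in t2, and NFKB1 is higher after IR in t2.

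The comparison with enzalutamide asks whether blocking the androgen receptor for 90 min changed these genes, alone or with IR. Without IR, 0 of 9 genes were called by edgeR or DESeq2 and 0 had an unadjusted p under 0.05, against 0.0105% of all genes called by edgeR. With IR the same counts were 0, 0 and 0.0105%. Of all 28651 genes, 734 had an unadjusted edgeR p under 0.05 without IR, 859 with IR and 1780 averaged over IR. Averaged over IR, 0 of 9 were called by either tool, against 0.0628% of all genes by edgeR, and NFKBIA was the 1 gene with an unadjusted p under 0.05. Its log2 fold change was -0.24 (SE 0.087, unadjusted p = 0.0136, edgeR adjusted p = 0.735). It was lower with enzalutamide in both replicates without IR and, by group means, with IR (48.9 ± 4.60 against 57.3 ± 6.36 CPM, SD, n = 2), where the groups did not overlap either. For 8 of the 9 genes the 95% interval of the averaged change lay within 1.5-fold in both directions. For RELB it ran from 0.837-fold to 1.28-fold and for NFKB2 from 0.849-fold to 1.21-fold. The exception was ICAM1, from 0.642-fold to 1.67-fold.

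An interaction term tested if the change after IR differed with enzalutamide. By edgeR and by DESeq2 0 of 9 genes passed, as did 0% of all genes by edgeR. TNFAIP3 was the 1 gene of the 9 with an unadjusted edgeR p under 0.05, against 343 of all 28651 genes. For RELB the interaction was -0.17 (95% interval -0.83 to 0.48), for NFKB2 0.29 (-0.23 to 0.82) and for NFKBIE -0.19 (-0.75 to 0.37). The intervals of 3 of the 9 genes lay within 1.5-fold, so differences of that size were not excluded for the other 6.

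**Figure D4:**
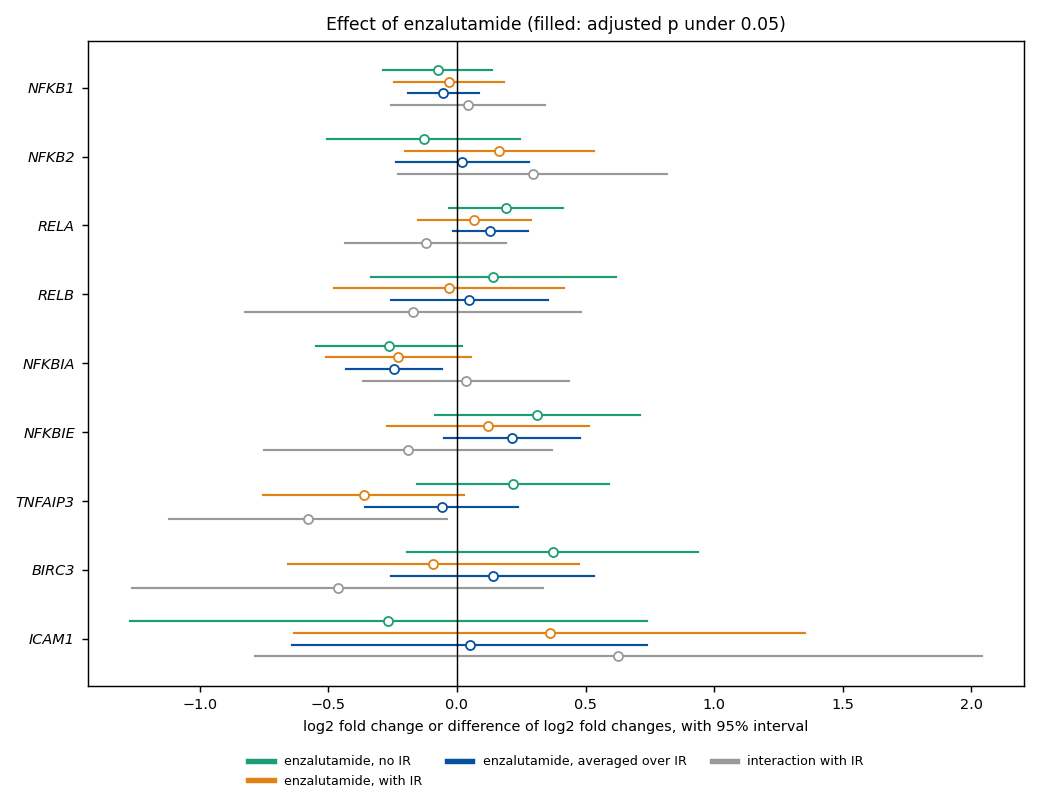
Log2 fold change with enzalutamide (horizontal axis) without IR, with IR and averaged over IR, and the interaction of enzalutamide and IR as a difference of log2 fold changes, each with its 95% interval, for the 9 genes tested. No point is filled, since none passed an adjusted p of 0.05; the intervals of ICAM1 are the widest.

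Levels also differed in order between genes across the 6 groups, though batch and group cannot be told apart in levels set across batches. NFKB1 was highest in the irradiated cells of batch 1 (218 ± 22.8 CPM, SD, n = 2), then mock (167 ± 9.71 CPM), and the 4 groups of batch 2 overlapped with their neighbours in the order. RELA had the reverse order of batches, from 40.1 ± 0.869 CPM with enzalutamide and IR to 17.1 ± 0.743 CPM in mock. RELB was highest in the 2 irradiated groups of batch 2, 6.77 ± 0.357 CPM with vehicle and 6.63 ± 0.436 CPM with enzalutamide, which overlapped. It was lowest in mock, at 2.87 ± 0.181 CPM. NFKBIE ranged from 24.7 ± 1.899 CPM in irradiated batch 1 cells to 6.98 ± 1.27 CPM with vehicle. NFKBIA and TNFAIP3 had their highest means in mock, at 68.7 ± 3.08 and 9.27 ± 0.685 CPM.

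The other genes of the pathway were taken from a list by role, which was also written with earlier results known. Of 66 listed genes outside the 10, 1 (SOD2) was not matched to an identifier and is not analysed here, and 49 had enough counts. Averaged over enzalutamide, 3 of the 49 were called higher after IR and 0 lower, against 4.71% of all genes called in either direction, and the median log2 fold change of the 49 was 0.07, against -0.01 over all genes. The 10 genes had a median of 0.29 over their 9 tested members. The 3 were PIDD1, which carries the damage signal to NEMO (0.35, SE 0.063, edgeR adjusted p = 0.00502), the adaptor kinase IRAK1 (0.29, SE 0.062, edgeR adjusted p = 0.0157) and LTBR, the lymphotoxin β receptor upstream of the non-canonical pathway (0.23, SE 0.054, edgeR adjusted p = 0.0255). Over both batches 2 of the 49 were called higher and 0 lower, against 4.05% of all genes, a share near that of the list. They were PIDD1 (0.29, SE 0.075, edgeR adjusted p = 0.0296) and TNIP1, which binds A20 (0.27, SE 0.073, edgeR adjusted p = 0.0399). The median of the list was 0.06 there, against -0.02 over all genes. With the replicate block the averaged count was 9 of 49, against 15.0% of all genes, and it added MAP3K14, NFKBID, BCL3, TNIP1, RIPK1 and IKBKB. In the 8 fits that left out 1 replicate of batch 2, PIDD1 was called in 8, IRAK1 in 5 and LTBR in 3.

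PIDD1 was at 46.2 and 55.3 CPM with vehicle, 65.0 and 65.0 CPM with vehicle and IR, 54.3 and 55.2 CPM with enzalutamide, and 70.5 and 68.6 CPM with both. Its irradiated samples were all above its unirradiated ones in batch 2. The list of further target genes, such as chemokines and adhesion genes, had 21 genes, SOD2 among them, and 9 had enough counts in batch 2. None of these was called after IR averaged over enzalutamide by edgeR or DESeq2, 1 had an unadjusted p under 0.05, and their median was -0.05. Of the 7 kinase genes, which include IKBKB, IKBKG and MAP3K14, 0 were called by either tool and 2 had an unadjusted p under 0.05. Of all 28651 genes, 6246 had an unadjusted edgeR p under 0.05 in that averaged fit. For enzalutamide averaged over IR, 0 of the 49 were called by either tool. An unadjusted edgeR p under 0.05 was found for 4 of the 49, against 1780 of all 28651 genes.

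Genes next to NFKB2, RELB and NFKBIE, which were called in the main IR fits, were read as a check of local signal. PSD, 90 bp from NFKB2, had a log2 fold change of -0.02 after IR averaged over enzalutamide (edgeR adjusted p = 0.885), and GBF1 on the other side had 0.10 (edgeR adjusted p = 0.313). CLASRP, 853 bp from RELB, had 0.22 (edgeR adjusted p = 0.0991), and CLPTM1 had 0.18 (edgeR adjusted p = 0.129). SLC35B2, 276 bp from NFKBIE, had 0.12 in batch 1 (edgeR adjusted p = 0.851), and TMEM151B had 0.34 (edgeR adjusted p = 0.742). None of these 6 neighbours was called in these fits. Of members called only in other fits, neighbours are given for NFKB1 alone. MANBA, 13468 bp from NFKB1, was at 69.6 and 82.2 CPM in mock t1 and at 56.5 and 68.4 CPM in irradiated t1 libraries. In the t2 libraries it was at 59.3 and 55.7 CPM in mock and at 83.8 and 96.8 CPM after IR, so it was higher there, as NFKB1 was. RN7SL728P, on the other side, had 0 counts in these libraries.

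Across the 12 samples, log2 CPM centred within each batch gave pairwise correlations between -0.51 and 0.84 for the 8 genes with a mean of at least 50 counts. The median of the 28 pairs was 0.40, and 22 were positive. The lowest was that of NFKB1 and TNFAIP3. In each sample the genes were read from the same libraries, with the same depth and treatment. Correlations of other gene pairs are not given beside them, so the values are descriptive. Over the same samples and 18686 genes, the genes most like RELB were AJUBA-DT (r = 0.98), ABCA2 (0.98) and EEF1A2 (0.98). Those most like NFKB2 were LRRC45 (0.98), ARHGEF19 (0.96) and DNM1P35 (0.94), and those most like NFKBIE were ANKS6 (0.96), SLC27A4 (0.96) and an identifier with no symbol, ENSG00000270149 (0.95). For NFKB1 they were MEGF9 (0.99), TMEM144 (0.95) and ASCC3 (0.94), for RELA APRT (0.93), ULK1 (0.93) and AKAP8 (0.93), and for NFKBIA CBLL1 (0.95), TMEM209 (0.94) and C14orf132 (0.92). For TNFAIP3 they were ZNF285 (0.91), LINC01968 (0.86) and CTSV (0.84), and for BIRC3 LAGE3 (0.95), FBXL16 (0.91) and LINC02908 (0.90).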

How the data were processed

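For each batch the authors deposited a table of unnormalized read counts by Ensembl identifier, as judged from its whole-number values. Per the submitters' processing notes, cutadapt 1.8.1, Bowtie2 2.4.4, SAMtools 1.9 and hg38 were used. The counting tool, annotation, use of strand and removal of duplicates are not given in the sources used here. Symbols matched 60463 of 60605 identifiers (99.8%). Genes were kept by filterByExpr, scaled by TMM and tested two-sided with edgeR 4.0.16 (glmQLFTest) in R 4.3.3, with Benjamini-Hochberg adjustment over all genes and a threshold of 0.05. SEs were derived from the fitted change and its F value. Batch 2 was 1 model over 8 samples. Averaged effects came from it without the interaction, and fits over both batches held batch as a covariate. Summed t1 and t2 counts were 1 replicate.

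Alternatives were the replicate block, RLE and total-count scaling, DESeq2 1.42.0, no filter, leaving out each replicate, the t libraries alone, and, chosen after seeing the data, IR by t label. Group numbers are shared within a batch in the labels. Same-numbered samples deviated together (correlation over 18686 genes 0.335 in batch 1 and 0.246 to 0.449 in batch 2), so blocked values are given where they change a call. Steps were tested on simulated data. The members and lists were chosen with earlier results of these data known. All 10 genes are named, with other pathway genes past the threshold in 3 of the fits. Also named are the 3 genes most like each member with a mean of at least 50 counts. Neighbours are named for members called in the main IR fits and for NFKB1. A log2 CPM used for likeness had 0.5 added before the logarithm. Of 5 listed immune markers 1, with the sum that holds it, is not reported here.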

Additional observations from a re-analysis of the deposited data

Results flagged for a closer look

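In batch 1, 4 of the 8 genes with enough counts had an effect of IR that differed between the t1 and t2 libraries. This was by a test of the difference itself (edgeR, 8 libraries, a product of t label and IR, chosen after seeing the data). The effect in t2 minus that in t1 on the log2 scale was 0.93 for NFKB1, -0.65 for NFKBIA, -2.21 for NFKBIE and -1.25 for TNFAIP3. Of all genes tested, 45.2% passed the same test. DESeq2 called 2 of these 4, NFKB1 and NFKBIE, against 30.3% of all genes. The meaning of t1 and t2 is not given in the labels. The share of mitochondrial counts moved with the same split, and its part was not tested.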

How the results depend on the processing

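Counts of called members are given by comparison, with the share of all genes called under the same setting in parentheses. The count of 1 for IR in batch 1 became 2 with the replicate block (9.01%), 0 with total counts (2.68%), 0 with DESeq2 (2.25%), 4 with t2 libraries alone (44.7%) and 0 with 8 libraries and a t term (1.10%). The 0 for IR with vehicle became 1 with the replicate block (4.59%). The 0 for IR under enzalutamide became 1 with the replicate block (3.32%) and 1 without a filter (1.01%). The 2 for IR averaged over enzalutamide became 5 with the replicate block (15.0%), 1 with total counts (4.07%) and 4 with DESeq2 (8.53%). The 2 for IR over both batches became 3 with the replicate block (6.69%), 3 with DESeq2 (4.83%) and 0 with t2 libraries alone (2.37%). The 0 for the difference between batches became 1 with t1 (1.66%) and 4 with t2 libraries alone (20.3%). The 4 for the difference between t labels became 2 with DESeq2 (30.3%). Of other pathway genes, the 3 for averaged IR became 9 with the replicate block (15.0%), and the 2 over both batches became 0 with t1 (2.93%) or t2 libraries alone (2.37%).

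Leaving out 1 replicate gave 0 to 1 members for IR in batch 1, 0 to 1 under enzalutamide (1, NFKB2, without enzalutamide replicate 4), 0 to 3 averaged over enzalutamide (0 without vehicle replicate 3, 3 with RELA added without enzalutamide replicate 4) and 2 to 2 over both batches. It gave 1 to 5 other pathway genes averaged over enzalutamide and 0 to 3 over both batches. The counts for IR with vehicle, for enzalutamide without IR, with IR and averaged, for the interaction and for the difference between batches were 0 to 0. NFKBIE reversed with t2 libraries alone, to -0.56 in batch 1 and -1.03 in the difference between batches. The cause was not tested in any of these. The replicate block changed no call of a member beyond those named. Depth limits CXCL8 and ICAM1 most, and 2 replicates per group limit every test. Other scalings and DESeq2 moved the median of all genes by over 0.1 only in the difference between t labels. That median was -0.04 in the main fit, -0.24 with total counts and 0.07 with DESeq2.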
